A study of Arabidopsis thaliana with 30 samples.

Results

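The comparison described here is the net change in aerial organ explants of Arabidopsis thaliana between 0 h and 96 h on callus inducing medium. Its members are the 3 arrays titled aerial organ explants at 96 h and the 3 at 0 h, 6 of the 30 arrays of the series. The title of each array gave its group. All explants were wild type Columbia-0 and carried no transgene, and their source was seedlings aged 10 days, raised at 22 °C on solid MS medium under days of 16 h light and 8 h dark. At 0 h the aerial organs had just been placed on the medium, and at 96 h they had been on it for 96 h. Root explants of the same seedlings and times form the other organ of the series, and the arrays at 12, 24 and 48 h lie between. The labels call the 3 arrays of a group biological replicates. They do not say how many seedlings went into each, and a sample of aerial organs mixes leaves, cotyledons, stem and shoot tip as far as a seedling has them.

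Callus is a mass of dividing plant cells that forms when tissue pieces are kept on a medium whose hormones, usually an auxin and a cytokinin, hold cells in division. In Arabidopsis it is known to start from pericycle and pericycle-like cells around the veins, and to use regulators of lateral root formation even when the explant is a leaf or petiole. Leaf tissue is also known to lose photosynthetic gene expression when it is cut, fed with sugar or ages. What this medium contained, and at what hour each harvest was made, is not given in the sources here. No explants kept off the medium are part of the comparison, so effects of the medium cannot be told apart from those of cutting, of 96 h of age or of time of day.

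RNA was hybridised to Affymetrix ATH1 arrays, which measure each transcript with a set of short probes, called a probe set. The values are MAS5 signal, a brightness on a linear scale. The median signal per array lay between 154.95 and 177.4. Log2 signals of the 3 arrays at 0 h correlated with r from 0.943 to 0.957 across tested probe sets, those of the 3 arrays at 96 h with r from 0.959 to 0.975, and those of the 2 groups with r from 0.73 to 0.786. Probe sets are not independent replicates. The first array at 0 h was the least like the others, with r of 0.73 to 0.735 to the arrays at 96 h. The GAPDH control, whose 3' over 5' log2 ratio is a sign of RNA quality, was 0.36 to 0.96 at 0 h and 0.29 to 0.65 at 96 h, and the groups overlapped. The label of the tissue held against its markers. At 0 h, RCA (Rubisco activase) had a mean signal of 31816.0 in aerial explants and 172.7 in root explants, and the root factor AGL42 had 1.3 against 632.9.

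**Figure D1:**
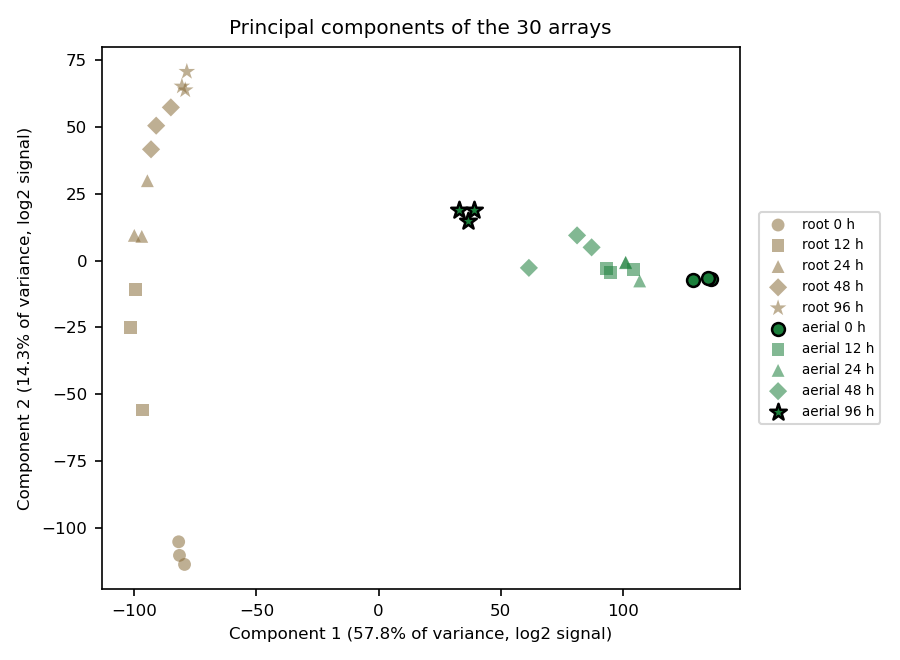
Principal components of log2 signal over all tested probe sets for the 30 arrays, with the share of variance on each axis. Each point is 1 array, circles with a black edge are aerial explants at 0 h and stars with a black edge are aerial explants at 96 h. The 3 aerial arrays at 0 h lie between 128.82 and 135.83 on component 1 and the 3 at 96 h between 33.03 and 38.91, while the root arrays stay below 0 at every time.

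By 96 h the aerial explants had lost most of the signal of most tested nuclear photosynthesis genes. Tested genes of the plastid genome had a median log2 change of -1.68, and those of photosystem II a median of -1.19. Among the latter, psbA (-0.62) was not called. STOMAGEN, SPCH and 3 of 4 tested flavonoid genes also fell. The largest named rises included the auxin conjugation gene GH3.3, the lateral root factor LBD29, the wall enzyme genes XTH18 and XTH20, the vacuolar protease gene ALPHA-VPE, the class III peroxidase gene AT5G64120 and PR-1-LIKE. The tested members of pathway lists were more mixed, with the counts given below. They are a small part of each list, such as 10 of 75 auxin genes and 9 of 71 mitosis genes. For the Calvin cycle list they were 5 of 42, and for the photosystem list 14 of 67. Of 16765 tested probe sets, 4354 were called higher at 96 h (26.0%) and 3113 lower (18.6%), together 44.5%, by limma on log2(signal + 22) at a Benjamini-Hochberg adjusted p below 0.05. Calls of at least 2-fold numbered 2356 higher (14.1%) and 2225 lower (13.3%). Changes above 4-fold were called for 759 rises and 885 falls, and changes above 16-fold for 114 rises and 91 falls. The median log2 change over all tested probe sets was 0.128, and counts for gene groups are to be read against these shares. The groups of 3 arrays did not overlap for 4989 probe sets higher at 96 h (29.8%) and 3684 lower (22.0%), together 51.7%.

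The 30 genes with the largest changes among those with a symbol or a described product are shown with every array in the plot of ranked genes. For all 30, the arrays at 96 h did not overlap those at 0 h, against 51.7% of all tested probe sets. Their choice as the largest called changes between these arrays favours this, so it is no further support. Only 1288 of the 9086 tested genes have such a name here, and 318 of these were called up and 299 down, so a gene without a name may have changed more than those shown. Changes below are on the log2 scale with limma's standard error (± SE) for 3 arrays against 3, and p is limma's, adjusted over all 16765 tested probe sets. The spread behind both was estimated within groups over all 30 arrays, so it is not that of the 6 compared arrays alone. Adding 22 to the signal makes a change of a dim gene smaller than the ratio of its signals.

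The lateral organ boundaries-domain factors LBD29 and LBD16 and the AP2 factors PUCHI and BBM stood far above their level at 0 h by 96 h. LBD29 (AT3G58190), a transcription factor that acts in lateral root initiation downstream of auxin response factors, had signals of 7.3, 6.0 and 1.6 at 0 h, and at 96 h they were 1654.2, 2395.1 and 2001.2. The groups were far apart, and the change was 6.23 ± 0.44 (adjusted p = 2.966e-12). LBD16, its relative in the same process, went from 142.0, 63.3 and 53.3 to 1006.3, 880.9 and 979.6, a rise of 3.26 ± 0.31 (adjusted p = 9.034e-10). PUCHI, an AP2 factor of the early lateral root primordium, had 14.6, 48.6 and 20.5 at 0 h and 321.1, 486.3 and 454.0 at 96 h. Its rise was 3.19 ± 0.33 (adjusted p = 3.541e-09). BBM (BABY BOOM), an AP2-type regulator of embryos and of the root's stem cells, had 63.8, 1.8 and 5.0 at 0 h, where 1 array stood above the others, and 230.8, 285.8 and 285.2 at 96 h. It rose by 2.92 ± 0.42 (adjusted p = 1.328e-06). These 4 were the called members among 9 tested of the list of lateral root and callus regulators, and none was called down. The other 5 were not called, with changes of 0.57 for JKD, 0.49 for AT5G41920, 0.31 for LHW, -0.29 for GSO1 and -0.47 for CR4.

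LBD29 had a higher mean at each later time, from 181.0 at 12 h to 406.1 at 24 h, 1054.2 at 48 h and 2016.8 ± 370.7 (SD, n = 3) at 96 h. PUCHI and BBM took different courses. PUCHI had a mean of 54.93 at 12 h and 510.7 at 48 h, so its level at 96 h, 420.5 ± 87.56, was not above that at 48 h. BBM had means of 11.8, 12.1 and 54.77 at 12, 24 and 48 h, then 267.3 ± 31.58 at 96 h, so its signal came up in the last interval. Steps between neighbouring times were not tested.

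Auxin conjugation genes rose. The GH3 genes encode enzymes that join auxin to amino acids and are themselves induced by auxin. GH3.3 (AT2G23170) had signals of 361.7, 348.4 and 233.9 at 0 h and 17961.3, 20463.6 and 17144.1 at 96 h, a rise of 5.80 ± 0.36 (adjusted p = 1.581e-13). GH3.1 had 30.6, 1.6 and 28.3 at 0 h and 674.9, 955.2 and 589.4 at 96 h, a rise of 4.23 ± 0.48 (adjusted p = 2.595e-08). WES1, also known as GH3.5, was already at 1976.7, 866.1 and 1091.1 at 0 h and reached 10179.5, 12589.0 and 10218.1, a rise of 3.13 ± 0.34 (adjusted p = 9.296e-09). All 4 tested GH3 genes were called up, by 1.16 to 5.80. IAA20, an Aux/IAA repressor of auxin signalling, went from 6.8, 8.7 and 9.5 to 268.3, 166.8 and 249.1, a rise of 3.02 ± 0.36 (adjusted p = 7.585e-08).

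Of the 10 tested members of the auxin list, 7 were called up, 1 down and 2 not, with a median change of 2.36. The member called down was YUC2, a flavin monooxygenase of auxin synthesis, at 241.3, 148.4 and 202.8 against 63.5, 97.6 and 69.0, a change of -1.15 ± 0.37 (adjusted p = 0.01314) that lost its call without a pseudocount or without the first array at 0 h. The auxin list had most of its change early, with a median of 1.81 at 12 h and 1.64 at 24 h against 0 h. GH3.3 already had a mean of 11587.5 at 12 h. Cytokinin response was represented by 2 of 47 listed genes, both type-A response regulators, which cytokinin induces and which dampen its signal. Both fell. ARR15 had 113.7, 165.1 and 88.0 at 0 h and 3.7, 30.2 and 22.9 at 96 h, a change of -1.84 ± 0.41 (adjusted p = 0.0005221). RR16 had 136.9, 189.1 and 343.9 against 81.8, 54.6 and 66.5, a change of -1.38 ± 0.41 (adjusted p = 0.006616), a call lost without a pseudocount or without the third array at 0 h.

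**Figure D2:**
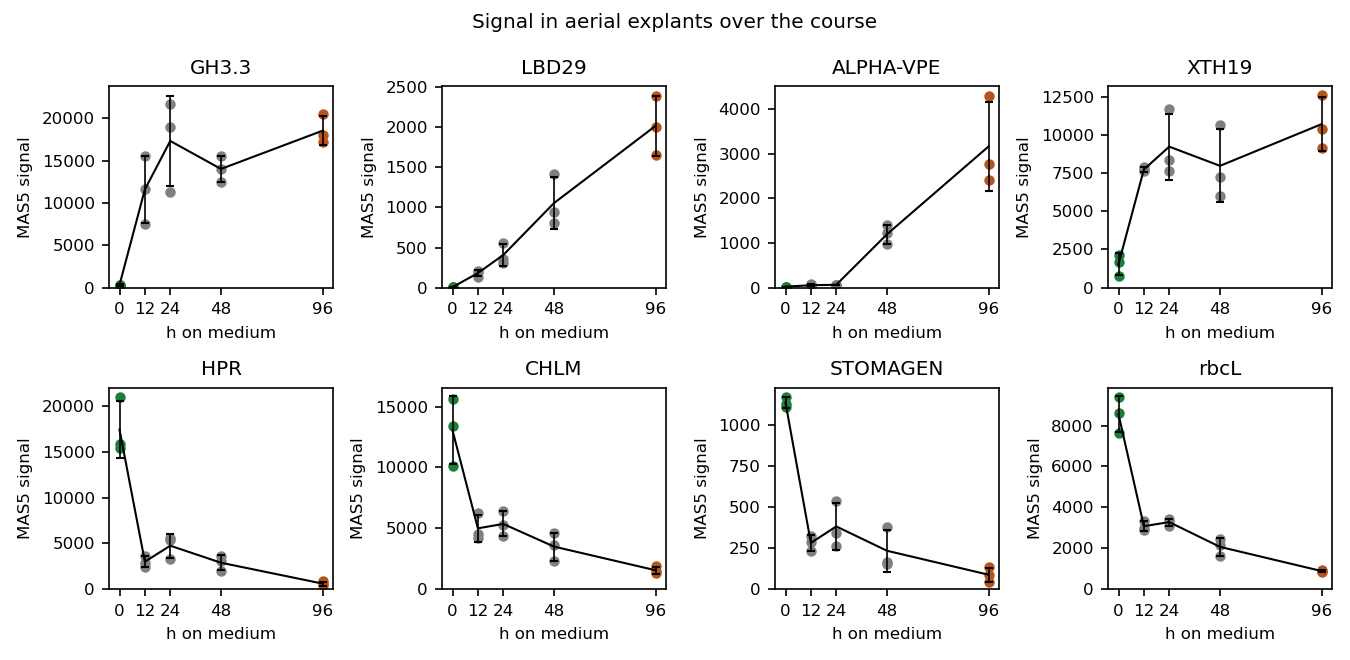
MAS5 signal of 8 genes in aerial explants at 0, 12, 24, 48 and 96 h. Points are arrays, lines join means and bars are SD with n = 3. GH3.3 and XTH19 are near their level of 96 h by 12 to 24 h, ALPHA-VPE has a mean of 62.6 at 24 h and 1194.7 at 48 h, and HPR, CHLM, STOMAGEN and rbcL lie well below their level at 0 h by 12 h.

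Cell division genes changed little beside these. Of 9 tested genes of mitosis and cytokinesis, 4 were called up and 1 down, with a median of 0.54, and of 5 genes of DNA replication 1 was called up, with a median of 0.40. AUR1, a kinase of chromosome alignment and cell plate formation, had 417.8, 467.8 and 340.7 at 0 h and 694.3, 835.3 and 935.7 at 96 h, a rise of 0.97 ± 0.24 (adjusted p = 0.001582). BUB3.1, of the spindle checkpoint, rose by 0.99 ± 0.23 (adjusted p = 0.0006558). The largest rise on the mitosis list, 1.24 ± 0.27 (adjusted p = 0.0004065), was of SIM, an inhibitor of cyclin-dependent kinases known to restrain mitosis in trichomes. HTR12, the centromeric histone, rose by 0.91 with overlapping groups. BUBR1, another checkpoint kinase, fell by 1.0 (adjusted p = 0.04863). The calls of HTR12, of BUBR1 and of POLA3 (0.71), the member called for DNA replication, were lost under several alternatives, among them leaving out single arrays. The median of the mitosis list lay below its level at 0 h at first, at -1.11 at 12 h and -0.64 at 24 h, and above it at 48 h (0.13). Of 6 genes of ribosome biogenesis, AT5G14520 was called up (1.29 ± 0.22, adjusted p = 1.501e-05), and the list's median was 0.46.

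Genes of the wall changed in both directions. Xyloglucan endotransglucosylase/hydrolases cut and rejoin the xyloglucan chains that tie cellulose fibrils together, and expansins loosen walls without cutting. XTH18 (AT4G30280) had 159.8, 120.3 and 102.8 at 0 h, and its arrays at 96 h, at 3787.1, 4023.4 and 4363.7, lay close together. It showed a rise of 4.78 ± 0.28 (adjusted p = 8.638e-14). XTH20 had 14.5, 85.8 and 41.1 against 1758.1, 1320.7 and 1514.8, a rise of 4.62 ± 0.33 (adjusted p = 4.009e-12). XTH33 rose by 2.95 ± 0.32 (adjusted p = 9.343e-09). XTH19 rose by 2.88 ± 0.28 (adjusted p = 1.439e-09) from a mean of 1537.2 ± 695.0 to 10690.3 ± 1761.9. XTH18, XTH19 and XTH20 are close relatives in sequence, and hybridisation of one transcript to another's probes was not tested.

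Falls on the wall list were led by EXPB1, a beta-expansin, at 466.7, 592.9 and 553.1 against 29.4, 54.5 and 78.2, a change of -2.93 ± 0.40 (adjusted p = 5.231e-07). EXPA8 fell by 2.61 ± 0.34 (adjusted p = 2.485e-07). XTH32 fell by 1.86 ± 0.34 (adjusted p = 4.308e-05) and EXPB3 fell by 1.69 ± 0.30 (adjusted p = 3.71e-05). In all, 9 of 23 tested members were called up and 4 down, with a median of 0.85. Single members of both enzyme families thus moved in opposite directions, which the median does not show. Class III peroxidases, secreted enzymes that can stiffen or loosen walls, had 4 of 6 members called up, none down, and a median of 2.52. AT5G64120 (peroxidase 71) had 90.5, 249.5 and 292.2 at 0 h and 14943.6, 13235.8 and 14492.7 at 96 h, a rise of 6.07 ± 0.35 (adjusted p = 4.794e-14). Prx37 rose by 4.39 ± 0.31 (adjusted p = 3.07e-12), PRX52 by 3.20 ± 0.43 (adjusted p = 4.215e-07) and AT2G41480 by 1.86 ± 0.33 (adjusted p = 2.896e-05).

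Of 21 tested genes of senescence, proteolysis and autophagy, 16 were called up and 1 down, with a median of 0.93. ALPHA-VPE (AT2G25940), a vacuolar processing enzyme that matures and degrades proteins in vegetative vacuoles, led it. Its signals were 18, 19.8 and 23.7 at 0 h and 2404.7, 4303.1 and 2775.5 at 96 h, a rise of 6.19 ± 0.35 (adjusted p = 2.991e-14). Its mean was still 62.6 at 24 h and 1194.7 at 48 h. WRKY53, a transcription factor that promotes leaf senescence, had 45.8, 53.9 and 65.0 against 302.8, 513.7 and 365.9, a rise of 2.41 ± 0.47 (adjusted p = 0.0001018). WRKY6, which is also active in senescing leaves, rose by 2.31 ± 0.29 (adjusted p = 1.171e-07) and the subtilase gene SBT3.5 by 2.1 ± 0.50 (adjusted p = 0.0009546). ATG8 genes encode the small proteins that coat autophagosomes. Grouped after their values were seen, 7 of 9 were called up by 0.50 to 1.43, led by APG8A, and ATG8E stood at -0.34 and was not called. BETA-VPE, a vacuolar processing enzyme known from seeds, was the member called down (-0.87 ± 0.31, adjusted p = 0.02433), and that call was lost without any of 3 single arrays.

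Transport and remobilisation genes were called in both directions. SAG29 (AT5G13170), a sugar transporter of the SWEET family also known as SWEET15 that rises in senescing leaves, had 53.8, 68.4 and 30.7 at 0 h and 3372.1, 6586.9 and 3570.1 at 96 h. Its rise was 5.92 ± 0.51 (adjusted p = 1.569e-10), and its mean at 24 h was only 177.3. MGL, methionine gamma-lyase, rose by 2.39 ± 0.39 (adjusted p = 1.149e-05). IVD, an enzyme of branched-chain amino acid breakdown, rose by 1.82 ± 0.38 (adjusted p = 0.0002467), and PPDK, pyruvate orthophosphate dikinase, by 1.49 ± 0.34 (adjusted p = 0.0006243). The other SWEET genes called all fell. SWEET17, a fructose transporter of the vacuole, had 1407.9, 1691.6 and 915.0 against 336.1, 427.6 and 400.6, a change of -1.69 ± 0.26 (adjusted p = 3.762e-06). SWEET11, which exports sucrose for phloem loading, fell by 1.37 ± 0.28 (adjusted p = 0.0001989). SWEET4 (-1.10) and SWEET2 (-1.08) were called with overlapping groups, and both calls were lost without single arrays. Over the list, 5 of 17 members were called up and 5 down, with a median of 0.20. Over all tested probe sets the shares were 26.0% up and 18.6% down, so with so few members these counts do not set the list apart.

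Pathogenesis-related proteins included the largest named rise of the comparison. PR-1-LIKE (AT2G19990) had signals of 106.4, 112.7 and 17.7 at 0 h and 18068.2, 21218.3 and 16094.1 at 96 h, a rise of 7.70 ± 0.54 (adjusted p = 2.833e-12). OSM34, osmotin 34, had 189.3, 88.6 and 158.5 against 3773.4, 8207.8 and 6688.9, a rise of 5.2 ± 0.42 (adjusted p = 3.766e-11). PDF2.1, a defensin, was at 4.3, 3.3 and 3.5 and reached 215.2, 246.7 and 142.3, a rise of 3.09 ± 0.42 (adjusted p = 5.316e-07). PDF1.4 rose by 1.91 ± 0.46 (adjusted p = 0.001104). The 4 tested chitinases and pathogenesis-related proteins were all called up, with a median of 3.72. The same defence list also held the largest named fall. ECS1 (AT1G31580), which encodes a cell wall protein, had 21562.1, 24373.4 and 13537.4 at 0 h and 364.8, 480.9 and 634.3 at 96 h, a change of -5.26 ± 0.33 (adjusted p = 1.988e-13). Of the 10 defence genes tested, 4 were called up, 1 down and 5 not, with a median of 0.50. THI2.2, a thionin, fell by 3.93 ± 0.57 (adjusted p = 1.551e-06) from uneven signals of 3288.1, 492.5 and 342.1.

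Wound and jasmonate genes had no common direction. ORA47, a jasmonate-induced factor, was at 1228.4, 52.3 and 390.3 at 0 h and 48.8, 26.7 and 47.9 at 96 h, a change of -2.44 ± 0.58 (adjusted p = 0.001014). The spread at 0 h was wide. MYC4, a jasmonate-response factor, fell by 1.83 ± 0.29 (adjusted p = 5.522e-06), while OPCL1, an enzyme of jasmonate synthesis, rose by 1.21 ± 0.27 (adjusted p = 0.0005806) and MYC3 was not called (0.41). Of other ranked rises, PAP20, a purple acid phosphatase, rose by 5.11 ± 0.39 (adjusted p = 1.362e-11), the defensin gene PDF2.5 by 4.13 ± 0.39 (adjusted p = 1.004e-09) and M10, whose product the annotation does not describe, by 4.11 ± 0.37 (adjusted p = 3.371e-10).

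Glutathione transferases and redox genes moved both ways, with 4 of 17 tested members called up and 8 down and a median of -0.55. GSTU25 had 69.7, 80.2 and 52.1 at 0 h and 1955.2, 1040.1 and 1711.9 at 96 h, a rise of 4.1 ± 0.39 (adjusted p = 8.111e-10). GSTU18, of the same tau class, had 2401.5, 1574.0 and 1606.8 against 115.2, 107.3 and 62.2, a change of -4.01 ± 0.35 (adjusted p = 1.782e-10). Of 10 tau-class genes tested, grouped by symbol, 2 were called up and 3 down. The ascorbate peroxidases of the chloroplast also parted. TAPX, bound to the thylakoid, had 2969.8, 2636.0 and 1689.7 against 90.3, 114.1 and 107.8, a change of -4.25 ± 0.31 (adjusted p = 5.477e-12). SAPX, the stromal form, rose by 0.73 ± 0.23 (adjusted p = 0.01023), a call lost without the third array at 0 h. Among the falls, MSRB6, a methionine sulfoxide reductase, changed by -2.80 ± 0.43 (adjusted p = 3.864e-06) and CCS, the copper chaperone of superoxide dismutase, changed by -1.60 ± 0.37 (adjusted p = 0.0007915). MSRB9 rose by 1.61 ± 0.52 (adjusted p = 0.01269), a call lost without the first array at 0 h, and GSTU22 rose by 1.28 ± 0.33 (adjusted p = 0.002092).

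Other enzyme families had members called in both directions. Over all tested probe sets 26.0% were called up and 18.6% down, so counts near these shares do not set a family apart. Of 20 glycosyl hydrolases, 5 were called up and 3 down, near these shares, with a median of 0.21. GH9B13, of the endoglucanase family, had 233.5, 343.3 and 567.6 at 0 h, and its arrays at 96 h were at 2843.0, 2951.9 and 3298.2, a rise of 3.00 ± 0.32 (adjusted p = 1.02e-08). BGLU15, a beta-glucosidase, rose by 2.19 ± 0.22 (adjusted p = 1.911e-09), while BGLU40 of the same family had 1436.8, 780.3 and 1045.5 against 173.4, 168.2 and 174.7, a change of -2.47 ± 0.30 (adjusted p = 1.073e-07). Of 3 pectin enzymes, ATPMEPCRB, a pectin methylesterase, rose by 2.78 ± 0.30 (adjusted p = 1.259e-08) and PME61 fell by 2.1 ± 0.41 (adjusted p = 9.972e-05). Cytochrome P450 enzymes, which oxidise hormones and defence compounds, had 12 tested members of 253 listed, of which 2 were called up and 3 down. CYP71B23 led the rises at 2.57 ± 0.38 (adjusted p = 2.329e-06), from 41.5, 63.3 and 71.9 to 446.2, 352.3 and 583.8. CYP71B35 led the falls at -1.69 ± 0.38 (adjusted p = 0.0006093), a call lost without a pseudocount. Of 7 tubulin genes, which encode the subunits of microtubules, TUB1 rose by 1.31 ± 0.28 (adjusted p = 0.0002659) and TUA6 rose by 0.92 ± 0.23 (adjusted p = 0.001476), and the other 5 were not called. HTB2, a histone H2B gene, rose by 0.88 ± 0.19 (adjusted p = 0.0003792).

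**Figure D3:**
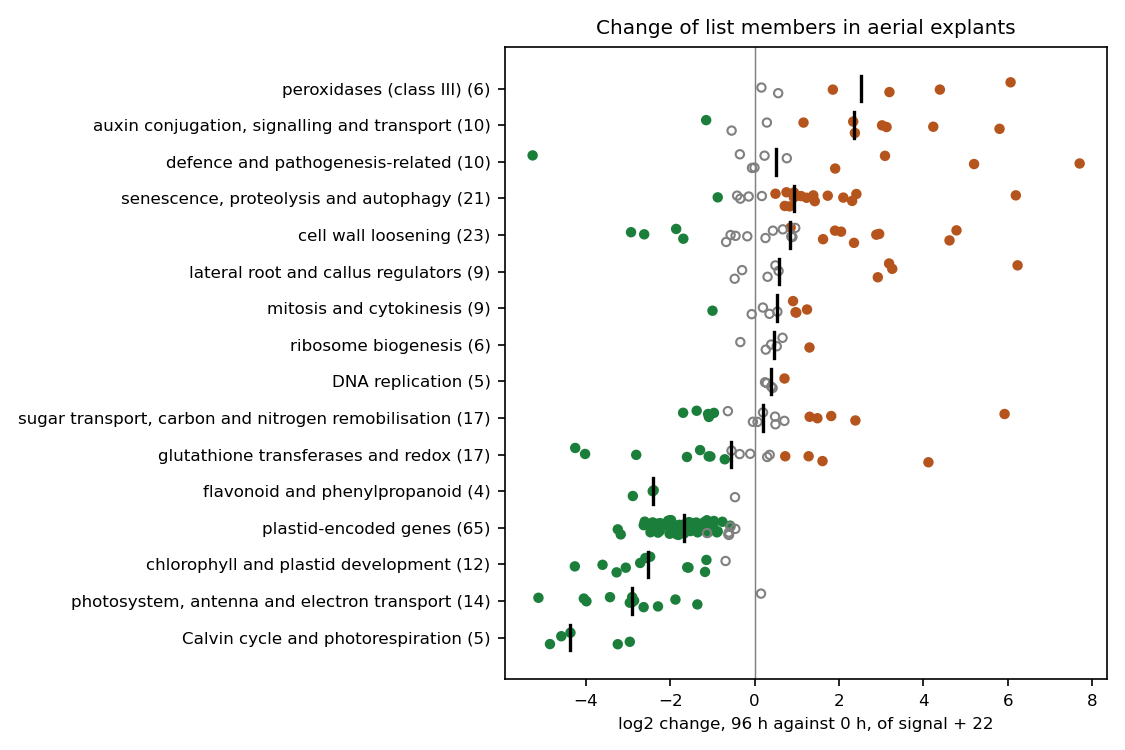
Log2 change of signal + 22 at 96 h against 0 h in aerial explants for the tested members of 16 gene lists, with the number tested in brackets. Filled points were called (orange up, green down), open points were not, and the black bar is the list's median, from -4.36 for the Calvin cycle to 2.52 for class III peroxidases.

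Photosynthesis genes fell together. In a mixed tissue, fewer green cells and less of a transcript in each cannot be told apart. The Calvin cycle fixes carbon dioxide in the chloroplast, and photorespiration recycles the by-product of Rubisco. All 5 tested members of that list were called down, with a median of -4.36. HPR (AT1G68010), the peroxisomal hydroxypyruvate reductase of photorespiration, had 21044.2, 15403.7 and 15933.2 at 0 h and 511.9, 847.7 and 447.5 at 96 h, a change of -4.85 ± 0.37 (adjusted p = 1.504e-11). SBPASE, sedoheptulose bisphosphatase, had 19096.2, 12157.4 and 9808.7 against 471.2, 550.0 and 573.6, a change of -4.58 ± 0.40 (adjusted p = 1.577e-10). PRK, phosphoribulokinase, fell by 4.36 ± 0.41 (adjusted p = 7.626e-10). The genes of Rubisco and its activase had smaller changes on this scale. rbcL, the plastid gene of the large subunit, had 9384.8, 7632.5 and 8635.5 against 873.3, 844.1 and 931.8, a change of -3.24 ± 0.24 (adjusted p = 4.876e-12), and RCA fell by 2.96 ± 0.24 (adjusted p = 3.786e-11). The sum of the 5 signals was 76562.4 to 107527.0 at 0 h and 6045.9 to 8576.2 at 96 h.

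Of 14 tested genes of the photosystems, antenna and electron transport, 13 were called down and none up, with a median of -2.90. CaS (AT5G23060), a thylakoid calcium-sensing protein, had 11957.2, 7441.9 and 8350.9 at 0 h and 369.6, 182.6 and 200.6 at 96 h, a change of -5.12 ± 0.36 (adjusted p = 2.578e-12). NdhN, a subunit of the chloroplast NADH dehydrogenase-like complex of cyclic electron flow, fell by 4.04 ± 0.39 (adjusted p = 1.11e-09), and its partner subunit NdhL fell by 4.22 ± 0.31 (adjusted p = 5.101e-12). PSAN, a photosystem I subunit on the lumen side, had 19391.2, 12929.0 and 14142.2 against 1218.5, 818.8 and 842.7, a change of -3.98 ± 0.39 (adjusted p = 1.535e-09). PSB27, an assembly factor of photosystem II, fell by 3.42 ± 0.31 (adjusted p = 2.784e-10). ATPC2, a second gene for the gamma subunit of the chloroplast ATP synthase, was the member not called, at 0.15. TRXF2, a thioredoxin that activates Calvin cycle enzymes in light, was also among the ranked falls, at -3.67 ± 0.37 (adjusted p = 2.669e-09).

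Tetrapyrrole and plastid genes followed, with 11 of 12 tested members of the list of chlorophyll and plastid development called down and a median of -2.53. LrgB (AT1G32080), also known as PLGG1, the glycolate and glycerate transporter of the chloroplast envelope, had 4735.9, 3633.9 and 2270.0 against 145.9, 167.7 and 157.1, a change of -4.26 ± 0.32 (adjusted p = 1.185e-11). HYH, a bZIP factor that acts with HY5 in light signalling, fell from 926.6, 480.2 and 385.1 to 28.4, 52.2 and 7.0, a change of -3.60 ± 0.49 (adjusted p = 5.87e-07). CHLI2, a subunit of magnesium chelatase, fell by 3.27 ± 0.37 (adjusted p = 3.103e-08). CHLM, the methyltransferase at the next step towards chlorophyll, fell by 3.05 ± 0.24 (adjusted p = 1.527e-11). FZL was not called (-0.69), except with quantile normalization or without the second array at 0 h. AT3G21670, annotated as NRT1/PTR family 6.4, a family of nitrate and peptide transporters, was the fourth of the ranked falls at -4.79 ± 0.37 (adjusted p = 2.009e-11).

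Genes of the plastid's own genome fell with them. Of 65 tested, 59 were called down, none up and 6 not, with a median of -1.68, and 59 of the 65 had groups that did not overlap. The subgroups differed in their medians. The 14 ribosomal protein genes were all called down, with a median of -2.01, and so were the 3 RNA polymerase genes, with a median of -2.40. Photosystem II genes had 11 of 15 called down and a median of -1.19, and photosystem I genes 4 of 5 and -1.32. The 9 genes of the NADH dehydrogenase-like complex were all called down, with a median of -1.65, and the 6 ATP synthase genes with a median of -1.61. These medians are descriptions, and their difference was not tested. The largest falls were of rbcL, of psbN (-3.17 ± 0.37, adjusted p = 5.279e-08), of rpoC2, a subunit of the plastid RNA polymerase (-2.62 ± 0.37, adjusted p = 8.71e-07), and of psbC, a core antenna protein of photosystem II (-2.60 ± 0.39, adjusted p = 3.251e-06). psbA, which encodes the D1 protein of photosystem II, was not called, at 1362.7, 978.3 and 1387.0 against 747.3, 966.9 and 683.0 (-0.62, adjusted p = 0.05783), though it was called down under several alternatives. Targets made by priming on poly(A) tails sample plastid transcripts poorly, and the sources here do not give the primer.

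Photosynthesis lists lay below their level at 0 h from 12 h on and were lowest at 96 h. The median change of the Calvin list against 0 h was -1.98 at 12 h, -1.49 at 24 h, -2.50 at 48 h and -4.36 at 96 h. That of the photosystem list was -0.96, -0.83, -1.56 and -2.90 at the same times. Plastid-encoded genes had medians of -0.69, -1.10, -0.85 and -1.68. All these medians are against the same 3 arrays at 0 h, and differences between the later times were not tested.

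Flavonoid glycosylation and anthocyanin genes fell as well, with 3 of 4 tested members of the flavonoid list called down and a median of -2.40. UGT78D1, a flavonol rhamnosyltransferase, had 1281.3, 1206.2 and 942.1 against 145.8, 104.5 and 159.0, a change of -2.88 ± 0.37 (adjusted p = 1.959e-07). UGT78D2, the flavonoid glucosyltransferase, fell by 2.41 ± 0.25 (adjusted p = 5.228e-09) and DFR, the reductase of anthocyanin synthesis, fell by 2.39 ± 0.45 (adjusted p = 7.603e-05). HCT of the lignin branch was not called (-0.46), except with a replicate block or without the second array at 96 h. Among 31 UDP-glycosyltransferases, which link sugars to small molecules, 7 were called up and 6 down, with a median of 0.04. These counts are near the shares of all probe sets, 26.0% up and 18.6% down. UGT73B4 led the rises, at 9.9, 21.1 and 42.3 against 667.6, 628.0 and 737.1, a rise of 3.97 ± 0.30 (adjusted p = 1.141e-11). UGT88A1 led the falls within the family outside the flavonoid list, at -1.91 ± 0.23 (adjusted p = 7.067e-08).

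Clock and light genes were split. GI (GIGANTEA), an evening gene of the clock, had 76.0, 3.9 and 62.1 at 0 h and 166.3, 483.0 and 428.6 at 96 h, a rise of 2.55 ± 0.46 (adjusted p = 4.134e-05). CCL, a clock-regulated gene, rose by 2.46 ± 0.40 (adjusted p = 8.85e-06) and AFR, a protein of far-red light signalling, fell by 2.1 ± 0.32 (adjusted p = 3.433e-06). The hours of harvest behind these values are unknown here. The stress lists had few tested members and few calls. Of 5 heat shock genes, Fes1A alone was called, up by 0.91 with overlapping groups, and that call was lost without single arrays. Of 6 cold and abscisic acid genes, COR47 (0.80) was called up and COR15A (-1.63) down, and both calls were lost under several alternatives. COR15B (-1.09) was not called, though it was called down under several alternatives. STZ (-1.03) was not called either, except without the second array at 0 h (-2.17). Of 3 hypoxia genes, AT4G17260 was called up (1.23 ± 0.27, adjusted p = 0.0004825).

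Of 10 tested markers of leaf cells, 7 were called down, 2 up and 1 not. Both mesophyll markers, RCA and PRK, were called down, and their summed signal was 42185.0 to 58001.8 at 0 h and 4189.5 to 6334.4 at 96 h. STOMAGEN, a peptide made in the mesophyll that promotes stomata, had 1173.4, 1111.2 and 1127.3 at 0 h and 131.8, 46.1 and 85.2 at 96 h, a change of -3.48 ± 0.32 (adjusted p = 6.493e-10). SPCH (SPEECHLESS), the factor that starts the stomatal lineage, had 95.1, 187.8 and 112.3 against 2.4, 5.7 and 19.0, a change of -2.30 ± 0.36 (adjusted p = 5.654e-06). FMA, of the last step of that lineage, was not called (-0.55). These 3 stomatal markers, of 17 listed, summed to 1337.5 to 1484.2 at 0 h and 125.8 to 256.3 at 96 h. STOMAGEN, made in the mesophyll, supplied most of the sum at 0 h, so the sum says little about cells of the stomatal lineage. TRY, a repressor of trichome fate, fell by 2.33 ± 0.53 (adjusted p = 0.0005878), while SIM, the other trichome marker, rose as given above. Of the leaf polarity factors, YAB3 fell by 1.97 ± 0.34 (adjusted p = 2.055e-05) and YAB5 fell by 1.13 ± 0.34 (adjusted p = 0.008435), a call lost without a pseudocount, while PHV rose by 0.77 ± 0.27 (adjusted p = 0.02178), a call lost without either of 2 arrays.

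Root markers gave few measured rises. AGL21, a MADS factor of roots, had 3.3, 2.0 and 4.2 at 0 h and 80.7, 87.5 and 52.1 at 96 h, a rise of 1.90 ± 0.27 (adjusted p = 9.512e-07), and root explants had a mean of 450.0 at 0 h. AGL42 was not called (0.48) and had a highest signal of 19.7 at 96 h, below the pseudocount. Without a pseudocount its change was 2.85 and was called (adjusted p = 0.0005). With BBM and JKD these are the 4 tested markers of the root stem cell niche and tip, of which 2 were called up. Their summed signal was 131.9 to 258.3 at 0 h and 570.8 to 618.5 at 96 h. BBM, given above among the lateral root and callus regulators, supplied most of that rise, so the sum says little about these markers as a set. The root hair expansins EXPA7 (0.96) and EXPA18 (0.67) were not called, nor was GSO1 of the endodermis. Of the vascular markers, SWEET11 was called down and OPS up by 0.62, a call lost under most alternatives. Neither of the 2 shoot meristem markers with a named probe set passed the filter. The part of a changed mix of cell types in the other results was not tested.

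The same interval in root explants shows where the aerial change differed. The difference between the aerial and the root change was called for 8716 of 16765 probe sets (52.0%), with the aerial change higher for 3853 (23.0%) and lower for 4863 (29.0%). Root explants had 6066 probe sets called up (36.2%) and 3515 called down (21.0%). In both organs 1903 probe sets were called up, 43.7% of the aerial and 31.4% of the root list, and 615 were called down, 19.8% and 17.5%. Opposite calls were made for 958 probe sets up in aerial and down in root explants. Another 927 were called down in aerial and up in root explants. The organ difference was called for all of these, which opposite calls in the same fit all but fix beforehand, so it is no further support.

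GH3.3, PAP20 and GH3.1 were the ranked genes for which no organ difference was called. For GH3.3 the root change was 4.80 and the difference, aerial minus root, 1.01 (adjusted p = 0.09434), and for GH3.1 the root change was 4.55 and the difference -0.31 (adjusted p = 0.7245). A p above the threshold does not show that the organs responded alike. LBD16, PUCHI and BBM also rose in root explants, by 2.91, 3.96 and 3.26, with differences of 0.35, -0.78 and -0.34 that were not called (adjusted p = 0.5236, 0.1604 and 0.6551). The net rise of LBD29 from 0 h to 96 h was smaller in root explants, at 2.46, and its difference of 3.77 was called (adjusted p = 1.094e-05). Its root signal was higher in between. The root means were 32.47 at 0 h, 1473.5 at 12 h, 2820.0 at 24 h, 1720.1 at 48 h and 249.3 at 96 h.

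Of 23 wall genes, 15 had a called organ difference, 7 with the aerial change higher and 8 with it lower, against 52.0% of all probe sets, so the list as a whole had no common direction. XTH18 fell in root explants, from a mean of 7511.7 to 341.3, and its difference of 9.18 was called (adjusted p = 2.295e-16). XTH19 changed by -1.23 in root explants, with a difference of 4.1 (adjusted p = 1.356e-09). OSM34 already had a mean of 23351.6 in root explants at 0 h and 22045.7 at 96 h, so its aerial level at 96 h, 6223.4 ± 2253.6, was still below that of root. EXPA8, which fell in aerial explants, rose in root explants by 2.75, with a difference of -5.36 (adjusted p = 3.714e-10). Autophagy and senescence genes had 16 of 21 members with a called difference, all with the aerial change higher, against 23.0% of all probe sets. The lists were chosen with earlier results of these data known, and 9 of these members are ATG8 genes of 1 family. The count is therefore not independent support. All 5 heat shock genes fell in root explants, with a median of -3.84, and the difference was called for each. In root explants the photosynthesis genes had far lower signals at 0 h than in aerial explants, with a root mean of 51.73 for HPR and 172.7 for RCA. None of the 5 genes of the Calvin list was called in root explants, where a signal as low as that of HPR leaves little room for a fall. Of the 14 photosystem genes, 2 were called down there and 1 up, and CaS fell from a root mean of 131.9 to 21.8, a change of -1.81 (adjusted p = 0.0001033).

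The few tested cell division genes mostly differed the other way. Over all probe sets, 36.2% were called up in root explants. The organ difference was called for 52.0%, with the aerial change lower for 29.0%. Of the 9 mitosis genes, 7 were called up in root explants, with a median of 1.66 against 0.54 in aerial explants. The difference was called for 6, not far above the 52.0%, and for 5 of these the aerial change was lower. The exception was SIM, which changed in root explants by -1.70 (difference 2.94, adjusted p = 2.89e-07). AUR1 rose by 2.15 in root explants, with a difference of -1.18 (adjusted p = 0.004899). All 5 DNA replication genes were called up in root explants, with a median of 1.84, and the aerial change was lower for 4 of them.

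**Figure D4:**
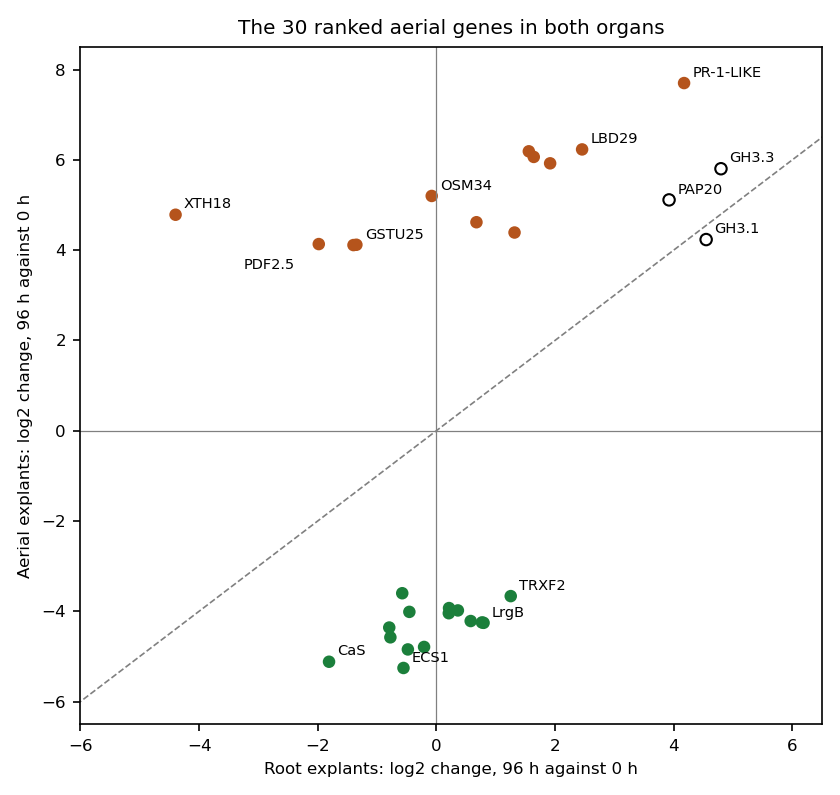
Log2 change at 96 h against 0 h in root explants (horizontal) and aerial explants (vertical) for the 30 ranked aerial genes, orange for aerial rises and green for aerial falls. The dashed line marks equal change. Open circles are GH3.3, PAP20 and GH3.1, whose organ difference was not called, and XTH18 lies farthest from the line.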

How the data were processed

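The deposited values are MAS5 signal intensity, 1 linear value per probe set and array. The submitters' processing notes name MAS5 with no version. Deposited intensity ran from 0.1 to 57102. The mean of each aerial array at 0 h and 96 h after trimming 2% at each end was 500.0 to 500.1, so arrays were scaled before deposit. About 5 µg of RNA was biotin-labelled, per the labels' protocols.

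Signals were analysed as log2(signal + 22), the pseudocount being the 20th percentile of all values. Of 22810 probe sets, 64 controls were left out, and 16765 with at least 3 arrays above 87.4 (the 40th percentile) were tested. Means of the 10 groups were fitted to all 30 arrays with limma 3.58.1 in R 4.3.3 (lmFit, eBayes with trend, 28.6 degrees of freedom), two-sided, Benjamini-Hochberg adjusted over all tested probe sets. The organ comparison is the aerial change minus the root change. The fit was also run on simulated data with independent normal noise and few changed probe sets. That run does not show how the fit performs on these arrays. The p-values measure the spread between these arrays, whose number limits the precision. No arrays were identical.

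The platform annotation of 2016 gives 1 gene to 13513 probe sets and several to 503, and 13436 of the former matched the TAIR10.1 gene table. The brightest probe set stood for each gene. The IDs of 593 tested probe sets end in _s_at or _x_at and may hybridise with related transcripts, and no gene named in the report rests on one. Members and lists were chosen with earlier results of these data known. Family lists and the list of plastid-encoded genes were drawn from annotation words, and 3 list names that matched another gene were left out. Named genes are the 15 largest called rises and falls with a symbol or described product, and up to 4 called members of a list each way, with exceptions stated. Promoter motifs were planned and not analysed here. Alternatives were other pseudocounts, filters, scalings, sample sets, a replicate block, no trend and leaving out each array.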

Additional observations from a re-analysis of the deposited data

Results flagged for a closer look

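The change from 0 h to 96 h differed between the organs for 8716 probe sets by the test of the difference itself, limma's interaction contrast. Of the 30 ranked aerial genes, 27 had such a difference, which their choice by large aerial change favours. It is given here as the aerial minus the root log2 change. Among rises it was 9.18 for XTH18, 6.12 for PDF2.5, 5.51 for M10, 5.47 for GSTU25, 5.28 for OSM34, 4.63 for ALPHA-VPE and 4.42 for AT5G64120. It was 4.01 for SAG29, 3.94 for XTH20, 3.77 for LBD29, 3.53 for PR-1-LIKE and 3.07 for Prx37. These differences compare end points only. In root explants, LBD29, PR-1-LIKE and SAG29 had means of 1720.1, 17499.1 and 1577.3 at 48 h, above those of 249.3, 5577.3 and 175.0 at 96 h. XTH18, PDF2.5, GSTU25 and M10 were called down in root explants, M10 at a root mean of 55.8 at 0 h.

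Among falls the difference was -5.05 for LrgB, -5.02 for TAPX, -4.92 for TRXF2, -4.80 for NdhL and -4.70 for ECS1. It was -4.58 for AT3G21670, -4.37 for HPR, -4.34 for PSAN, -4.25 for NdhN and -4.14 for THI2.2. It was -3.80 for SBPASE, -3.57 for PRK, -3.56 for GSTU18, -3.31 for CaS and -3.02 for HYH. The root means of these genes at 0 h ran from 8.3 for LrgB to 131.9 for CaS. From levels this low, with a pseudocount of 22, a root fall of the aerial size could not be measured. For genes picked as the largest aerial falls, a called difference was thus largely fixed beforehand and says little about the root response. LrgB, TAPX and TRXF2 were called up in root explants, at means of 33.33, 45.27 and 92.67 at 96 h.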

How the results depend on the processing

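No alternative turned the direction of a called change among the 365 named and listed genes, and the 30 ranked genes were still called under every alternative run. The number of probe sets higher at 96 h was 4354 and ran from 3724 to 4608 over the alternatives. The number lower was 3113 and ran from 2753 to 3368, and the number with an organ difference was 8716 and ran from 7986 to 9115. Leaving out single arrays gave 3724 to 4179 higher, 2775 to 2986 lower and 8042 to 8567 with an organ difference. Median centring of the arrays gave 3851 higher and 3368 lower, and the median change over all probe sets, 0.128 before, dropped by 0.068. Of the 365 genes, the calls lost ranged from 1 with the replicate block to 24 without the first array at 0 h among settings that tested all of them. The stricter filter left 26 untested and lost no call among the rest, and with no pseudocount 20 were lost and 4 gained. The arrays share replicate numbers, and same-numbered arrays at 0 h and 96 h deviated from their group means with r of 0.08, -0.032 and 0.125. These weak correlations cannot exclude a shared batch, and the labels do not say whether the numbers mark one. The replicate block gave 4608 higher, 3290 lower and 9115 with an organ difference. Promoter motifs were not run. The arrays were scaled to one target before deposit, so a change in total RNA per explant cannot be seen, and signals under the pseudocount of 22 have no reliable order.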

Other observations

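For some genes no change was called at 96 h against 0 h while the means in between were higher or lower. They are given as values and were chosen after their values were seen. JRG21, a jasmonate-regulated gene, had a mean of 110.5 ± 33.76 (SD, n = 3) at 0 h, 779.4 ± 382.6 at 12 h, 353.5 ± 72.62 at 24 h, 130.7 ± 27.13 at 48 h and 111.2 ± 34.17 at 96 h. AER, an alkenal reductase, had 667.1 ± 126.3 at 0 h, 2322.6 ± 290.3 at 12 h and 613.9 ± 45.77 at 96 h. IAA29, an Aux/IAA gene, had 448.1 ± 336.8 at 0 h, 1835.4 ± 245.3 at 12 h and 473.0 ± 182.3 at 96 h. BCAT4, the enzyme that opens methionine chain elongation for glucosinolates, went the other way, with 2416.7 ± 674.9 at 0 h, 662.9 ± 366.3 at 12 h, 1501.6 ± 924.8 at 48 h and 2309.8 ± 324.0 at 96 h. PMEPCRF, a pectin methylesterase gene, had 1113.2 ± 174.3 at 0 h, 337.2 ± 27.17 at 12 h, 1056.1 ± 38.18 at 24 h, 1410.1 ± 245.9 at 48 h and 907.8 ± 110.3 at 96 h. None of these 5 was called at 96 h against 0 h, with limma's adjusted p from 0.4462 for PMEPCRF to 0.9984 for JRG21, which does not show that the levels were equal.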
